A study of Homo sapiens with 12 samples.

Results

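Gene expression was compared between clone 8 and clone 7, a pair of stable lines with the same hHSS1 construct, both made from A172, a line of human glioblastoma cells. Of the 12 arrays of the study, 6 belonged to this comparison, the 3 cultures whose titles give clone 8 and the 3 whose titles give clone 7. The comparison was made as labelled, and again with replicate 3 of both clones left out, which kept 4 clone arrays. Both clones were transfected with pcDNA3.1 carrying hHSS1 fused to a C-terminal His tag and kept under G-418. The mock cells (3 arrays) carried the empty pcDNA3.1 vector, and the wild-type A172 cells (3 arrays) were not transfected. All cultures were harvested after 4 days. Each clone and the mock line is 1 cell line, so that p-values measure the spread between cultures of 1 line and not between independently made lines, and a difference between the clones cannot be told apart from what sets any pair of lines of A172 apart.

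hHSS1 is now listed as EMC10. Its protein takes part in the EMC, a machine of the endoplasmic reticulum that places membrane proteins into the lipid bilayer, and a splice form is secreted. Glioblastoma cells make matrix proteins, cytokines and guidance molecules by which they invade brain tissue and act on vessels and immune cells. Setting the clones side by side asks which genes differ although both lines received hHSS1.

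Transcripts were measured on GeneChip Human Gene 1.0 ST arrays, and all values are log2 levels as deposited, for 18417 genes. A difference is clone 8 minus clone 7 on the log2 scale with its standard error (SE), so that -1 means 2 times lower in clone 8. A gene was called different at a limma adjusted p under 0.05 and at least 1.5-fold. Array medians lay between 8.60 and 8.67. Over 3 arrays the SD of the median gene was 0.071 for wild-type, 0.055 for mock, 0.082 for clone 7 and 0.144 for clone 8. Precision is limited by how few arrays there are. Each SE and p-value pools the spread of all 4 groups, wild-type and mock included. Over replicates 1 and 2 the SD of the median gene was 0.122 for clone 8, 0.04 for clone 7, 0.043 for mock and 0.064 for wild-type. The pooled spread may thus be too small for clone 8. Without replicate 3, the smallest limma adjusted p was 0.000234 with the clone arrays alone, against 4.05e-10 with the controls. Of 8 markers listed for astroglia, VIM (vimentin) was bright at 13.7 in clone 7 replicate 1, whereas GFAP read 8.79, S100B 6.35 and AQP4 6.2 there. S100B and AQP4 lay below 7.00, the lowest lower quartile of the 12 arrays. In the means of replicates 1 and 2, 3 of the 8 markers lay below it in both clones. Between the clones, 0 of the 8 astroglial markers were called. In such bulk RNA, fewer cells of a type and less RNA per cell cannot be told apart.

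hHSS1 itself was high in both clones. EMC10 (chromosome 19) read 11.57, 11.72 and 12.30 on clone 7 replicates 1, 2 and 3, and 12.13, 12.18 and 11.75 on clone 8 replicates 1, 2 and 3. The mock arrays read 9.20, 9.33 and 9.51 and the wild-type arrays 11.13, 10.43 and 10.70, so that all 6 clone arrays lay above both controls. As labelled, the clones overlapped in EMC10, with a difference of 0.15 ± 0.20 (SE) and a limma adjusted p of 0.78. With replicate 3 left out the ranges did not overlap and the difference was 0.50 ± 0.18, which did not pass the test (adjusted p = 0.077). Against mock, without replicate 3, EMC10 was higher by 2.30 in clone 7 (adjusted p = 8.5e-06) and by 2.80 in clone 8 (adjusted p = 1.5e-06).

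As labelled, 0 of 18417 genes were called different between clone 8 and clone 7 (0% called, smallest limma adjusted p 0.62), and 1328 genes (7.21%) had an unadjusted p under 0.05. Replicate 3 lay apart from its group in both clones. On CCL2, the array labelled clone 7 replicate 3 read 8.32 beside 12.032 and 12.004 on replicates 1 and 2, and the array labelled clone 8 replicate 3 read 12.17 beside 8.36 and 8.49. On this gene, each replicate 3 array read like replicates 1 and 2 of the other clone.

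Without replicate 3 of both clones, 617 genes (3.35%) were called different between the clones, 173 higher (0.939%) and 444 lower (2.41%) in clone 8. The arrays were left out because of their values, with results of these data already known, so that these counts describe the 4 arrays that remain. By the adjusted p alone 3166 genes (17.2%) differed, 1201 higher (6.52%) and 1965 lower (10.7%). An unadjusted p under 0.05 was found for 5336 genes (29.0%), and 152 (0.825%) were called at 2-fold or more. The direction of every difference given here rests on the labels of replicates 1 and 2, and would turn if the labels of replicate 3 were the right ones instead. No array was moved to another group.

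An axis was set with replicates 1 and 2 of the 617 genes, on which the clone 7 mean lies at -1 and the clone 8 mean at +1. The array labelled clone 7 replicate 3 had a mean position of 0.852 and was nearer to clone 8 in 611 genes and nearer to clone 7 in 6. The array labelled clone 8 replicate 3 had a mean position of -0.902 and was nearer to clone 7 in 608 genes and nearer to clone 8 in 9. The 3 mock arrays lay at -0.096, -0.098 and -0.04, and the 3 wild-type arrays at -0.158, -0.232 and -0.223, close to the middle. The difference between the clones within replicate 3 had the opposite sign to that of replicates 1 and 2 in 616 of the 617 genes. It was of similar size, with a median of 0.726 against 0.772 regardless of sign, and Pearson's r across the 617 genes was -0.971, where genes are not independent replicates. Over all probe sets, the array labelled clone 7 replicate 3 correlated best with clone 8 replicate 2 (r = 0.997). With clone 8 replicate 1 its r was 0.9944, under its 0.9946 to 0.995 with the mock arrays. The array labelled clone 8 replicate 3 correlated best with clone 7 replicate 1 (r = 0.9963). Whether arrays or cultures were exchanged was not tested.

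**Figure D1:**
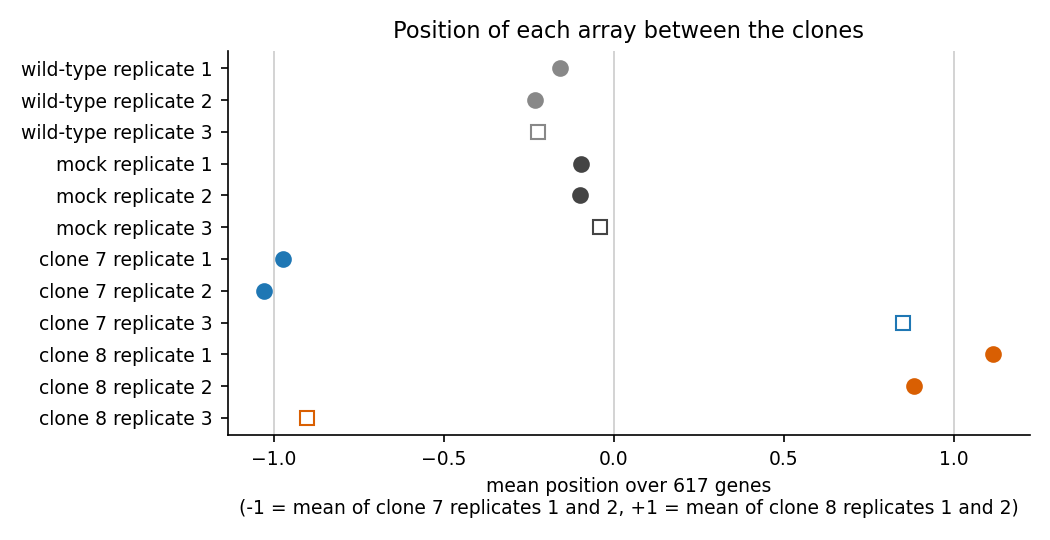
Mean position of each of the 12 arrays (vertical axis) over the 617 genes called without replicate 3, on a scale without units where -1 is the mean of clone 7 replicates 1 and 2 and +1 that of clone 8 replicates 1 and 2. Filled circles are replicates 1 and 2 and open squares replicate 3. The array labelled clone 7 replicate 3 sits at 0.852 and that labelled clone 8 replicate 3 at -0.902, whereas the 6 control arrays sit between -0.232 and -0.04.

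**Figure D2:**
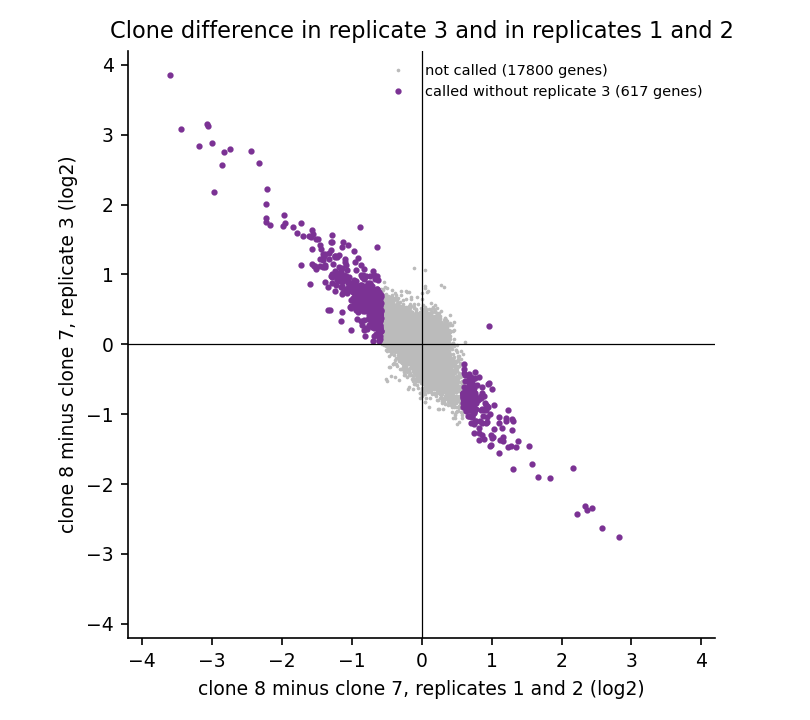
Difference between the clones (clone 8 minus clone 7, log2) in replicates 1 and 2 on the horizontal axis and in replicate 3 on the vertical axis, 1 point per gene. Purple points are the 617 genes called without replicate 3 and grey points all others. Of the purple points, 616 lie in the quadrants of opposite sign.

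Clone 8 replicate 1 and replicate 2 were less alike than the clone 7 pair. They differed by at least 1.5-fold in 270 of 18417 genes, against 14 genes between clone 7 replicates 1 and 2. Without clone 8 replicate 1 the clones differed in 590 genes, 263 higher and 327 lower, and without clone 8 replicate 2 in 955 genes, 197 higher and 758 lower. The share of called genes that were lower in clone 8 moved from 72.0% to 55.4% and to 79.4% with these arrays left out. In each fit that left out 1 of the 4 clone arrays, 396 of the 617 genes were called in the same direction, 116 higher and 280 lower. Below, levels of a clone are those of replicates 1 and 2, in that order, unless replicate 3 is named, differences come from the fit without replicate 3, and called genes that are not among the 396 are marked as such. The share of a list that was called stands in brackets, to be set beside the 3.35% of all genes. The lists were chosen with earlier results of these data known, and some genes are in more than 1 list. These shares are therefore a description and not a test of a list.

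CCL2 and POSTN had the largest differences among the named genes that were lower in clone 8. CCL2, the chemokine that draws monocytes, read 12.032 and 12.004 in clone 7 and 8.36 and 8.49 in clone 8 (replicates 1 and 2), a difference of -3.60 ± 0.07 or 12.1-fold (limma adjusted p = 4.05e-10). Mock cells read 11.73 to 11.86 and wild-type cells 11.82 to 11.95, so that clone 8 stood below all other groups. POSTN, or periostin, a matrix protein that binds integrins, read 11.96 and 12.02 in clone 7 and 8.21 and 8.90 in clone 8, a difference of -3.44 ± 0.16 (adjusted p = 1.94e-07). Its level was 10.71 to 10.75 in mock and 12.56 to 12.76 in wild-type, and so it fell between the clones in mock but above both in wild-type. On replicate 3, POSTN read 8.78 on the array labelled clone 7 and 11.87 on the array labelled clone 8.

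The promoter windows of 4 called genes are printed here because they belong to a matrix gene (POSTN), a cytokine (IL6), a subunit of the transcription factor AP-1 (FOS) and a cancer-testis antigen that was higher in clone 8 (MAGEB2). Each window runs from 250 bases before to 50 bases after the RefSeq start of the gene, in build GRCh38.p14 and in the direction of transcription. Capitals mark matches to the AP-1 letters TGANTCA, the TATA letters TATAAA or the NF-kappa-B motif, searched on both strands, and none of the marked matches overlap. The windows lie at chr13:37598719-37599018 (minus strand) for POSTN, chr7:22726950-22727249 (plus strand) for IL6, chr14:75278578-75278877 (plus strand) for FOS and chrX:30215313-30215612 (plus strand) for MAGEB2.
POSTN: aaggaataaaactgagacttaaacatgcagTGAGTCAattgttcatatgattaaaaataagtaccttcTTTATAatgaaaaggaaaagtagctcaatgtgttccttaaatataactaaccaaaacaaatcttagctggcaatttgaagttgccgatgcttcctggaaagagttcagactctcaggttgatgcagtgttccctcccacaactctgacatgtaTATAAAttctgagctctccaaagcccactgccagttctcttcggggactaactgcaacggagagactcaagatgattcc
IL6: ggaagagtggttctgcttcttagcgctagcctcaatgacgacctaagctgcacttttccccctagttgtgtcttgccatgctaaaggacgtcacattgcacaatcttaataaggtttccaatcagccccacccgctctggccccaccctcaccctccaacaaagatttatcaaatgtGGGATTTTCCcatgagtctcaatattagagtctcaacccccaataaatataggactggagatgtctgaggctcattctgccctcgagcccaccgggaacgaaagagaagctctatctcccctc
FOS: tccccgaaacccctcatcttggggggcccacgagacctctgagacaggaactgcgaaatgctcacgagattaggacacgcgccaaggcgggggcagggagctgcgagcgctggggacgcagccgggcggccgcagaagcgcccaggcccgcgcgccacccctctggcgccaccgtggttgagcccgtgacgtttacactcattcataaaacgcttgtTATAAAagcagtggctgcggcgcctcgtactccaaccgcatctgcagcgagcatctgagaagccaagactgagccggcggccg
MAGEB2: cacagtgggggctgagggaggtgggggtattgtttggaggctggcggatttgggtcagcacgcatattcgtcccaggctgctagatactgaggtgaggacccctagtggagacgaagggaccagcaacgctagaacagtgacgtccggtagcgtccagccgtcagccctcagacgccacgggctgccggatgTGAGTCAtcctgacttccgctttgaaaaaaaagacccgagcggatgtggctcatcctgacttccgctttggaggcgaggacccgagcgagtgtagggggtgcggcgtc

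In these windows POSTN held the AP-1 letters from 220 bases before the start and TATAAA from 29 bases before it, with a second TATA match on the other strand. MAGEB2 held the AP-1 letters from 58 bases before the start, FOS held TATAAA from 33 bases before it, and IL6 held the NF-kappa-B motif from 73 bases before it. Of all 35116 promoter windows, 7.71% held the AP-1 letters, 11.5% TATAAA and 7.73% the NF-kappa-B motif. Among windows of genes called higher in clone 8 (185 windows of 115 genes) the shares were 11.9%, 11.9% and 9.19%, and among those of genes called lower (529 windows of 347 genes) they were 7.18%, 10.0% and 7.37%. The FOS window held 30 CG pairs and the MAGEB2 window 21, against 3 for POSTN and 7 for IL6 and a median of 14 over all windows. These matches are a description of letters and say nothing of which factor binds in A172 cells.

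**Figure D3:**
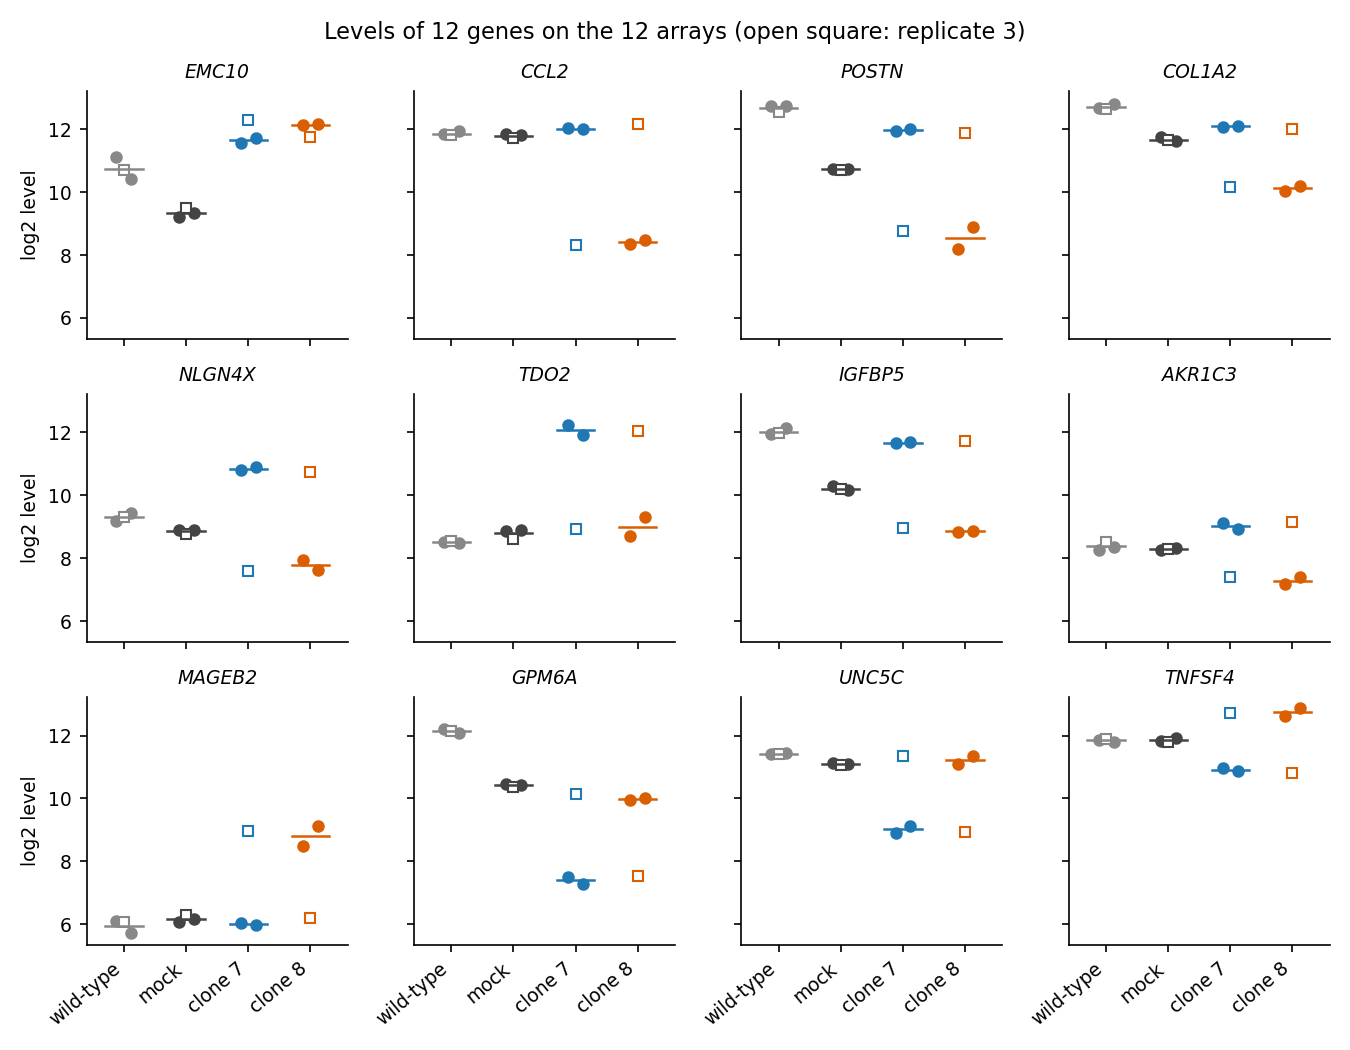
Log2 level (vertical axis) of 12 genes on the 12 arrays by group. Filled circles are replicates 1 and 2, open squares replicate 3, and bars the mean of all 3 arrays for wild-type and mock and of replicates 1 and 2 for the clones. In all 12 genes the open square of each clone lies nearer to the filled circles of the other clone. In CCL2 it reads 8.32 for clone 7 and 12.17 for clone 8. In EMC10 the clones lie closer together than in the other 11 genes.

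Collagen and basement membrane genes were called in 8 of 35 measured members, 7 lower and 1 higher in clone 8 (22.9%, against 3.35% of all genes). LAMA2, a laminin chain of basement membranes, read 10.21 and 10.34 in clone 7 and 8.05 and 8.07 in clone 8, a difference of -2.21 ± 0.09. COL1A2, a chain of type I collagen, read 12.09 and 12.10 against 10.04 and 10.21, a difference of -1.97 ± 0.08 (adjusted p = 6.86e-08). The other chain of that collagen, COL1A1, differed by -0.08 and was not called. COL3A1, the chain of type III collagen, differed by -1.22 ± 0.06 and stood near mock in clone 7 (11.28 and 11.34 against 11.35 to 11.38 in mock). LAMB3, a chain of the epithelial laminin, was the called member that was higher in clone 8. It read 9.43 and 9.40 in clone 8 against 8.16 and 8.04 in clone 7 (1.31 ± 0.09). By the adjusted p alone 4 members were higher and 9 lower. COL4A1 (0.54 ± 0.07), COL4A2 (0.41 ± 0.07) and LAMA5 (0.38 ± 0.08) were higher under the fold limit. The list's median difference was 0.067, beside 0.03 over all genes.

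Other matrix proteins were called in 11 of 37 members, 10 lower and 1 higher (29.7%). Behind POSTN came THBS1, or thrombospondin 1, a matrix protein that restrains angiogenesis, which read 12.83 and 12.81 in clone 7 and 11.35 and 11.49 in clone 8 (-1.41 ± 0.07, adjusted p = 2.68e-07). In THBS1 mock lay between the clones at 11.87 to 11.95. FBLN5, or fibulin 5, which takes part in elastic fibre assembly, differed by -1.32 ± 0.07, and LOX, the lysyl oxidase that crosslinks collagen and elastin, differed by -1.08 ± 0.09. FN1, or fibronectin, differed by -0.72 ± 0.08. LUM, or lumican, a collagen-binding proteoglycan, went the other way, at 8.56 and 9.21 in clone 8 against 7.56 and 7.59 in clone 7 (1.31 ± 0.16). SULF1 and FAP were outside this list. SULF1 removes sulfate groups from heparan sulfate. It read 11.27 and 11.25 in clone 7 and 8.13 and 8.38 in clone 8 (-3.00 ± 0.08). Its mock level of 8.67 to 8.75 was nearer to that of clone 8. FAP, a membrane protease of activated fibroblasts, read 8.92 and 8.93 against 6.61 and 6.77 (-2.23 ± 0.07), and its clone 8 level was below the lowest lower quartile of the arrays. In each fit without 1 clone array, 6 lower genes and 1 higher gene of the collagens and basement membrane stayed called, and 8 lower genes and 1 higher gene of the other matrix proteins.

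Among proteases and their relatives, 2 of 31 members were higher and 3 lower in clone 8 (16.1%). The lower ones were CTSL, the lysosomal cathepsin L (-0.93 ± 0.08), ADAMTS5, which cleaves aggrecan (-0.87 ± 0.10), and MMP2, gelatinase A, which read 12.45 and 12.43 in clone 7 and 11.62 and 11.79 in clone 8 (-0.74 ± 0.09). The higher ones were the membrane proteases ADAM19 (0.75 ± 0.08) and ADAM12 (0.65 ± 0.11, not among the 396). Among 17 integrin chains, ITGA4, which binds fibronectin and VCAM1, was lower (10.49 and 10.49 against 8.83 and 9.12, -1.51 ± 0.09), and ITGA2, which binds collagen, was higher (10.52 and 10.44 against 11.17 and 11.35, 0.78 ± 0.09). Integrins were thus called in 11.8% of members, once in each direction.

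Inflammatory cytokines and chemokines were called in 6 of 31 members (19.4%), 4 lower and 2 higher. IL6, a cytokine that signals through gp130, read 9.26 and 9.04 in clone 7, 7.90 and 7.75 in clone 8, 8.42 to 8.68 in mock and 7.60 to 7.85 in wild-type (-1.32 ± 0.11, adjusted p = 1.71e-05). IL1A (-0.70 ± 0.10, not among the 396, and below 7.00 in clone 8) and CSF1, the growth factor of macrophages (-0.70 ± 0.08), were lower too. TNFAIP3, an inhibitor of NF-kappa-B signalling, read 8.87 and 9.07 in clone 7 and 9.80 and 9.97 in clone 8 (0.91 ± 0.10), and IL11 was higher by 0.74 ± 0.08. The list's median difference was 0.014. Of membrane immune ligands outside this list, TNFSF4, or OX40 ligand, a T-cell costimulator, read 10.96 and 10.87 in clone 7 and 12.63 and 12.88 in clone 8 (1.84 ± 0.09, adjusted p = 1.74e-07). CD274, or PD-L1, an inhibitor of T cells, read 7.13 and 7.14 in clone 7 and 8.23 and 8.63 in clone 8, which is 2.46-fold higher (limma adjusted p = 0.000103).

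Interferon-stimulated genes were called in 6 of 33 members, all 6 lower in clone 8 (18.2%), and 15 members were lower against 1 higher by the adjusted p alone. SAMD9L, an antiviral and growth-restraining factor, read 11.98 and 11.96 in clone 7 and 10.50 and 10.89 in clone 8, with mock at 12.02 to 12.10 (-1.28 ± 0.10, adjusted p = 1.38e-05). IFITM1, which blocks viral entry, read 9.90 and 10.01 against 8.80 and 8.97 (-1.07 ± 0.08), IFIT1, which binds viral RNA, differed by -1.06 ± 0.10 and MX2, an antiviral GTPase, by -0.86 ± 0.08. ISG15 (0.20), IFITM3 (-0.13) and MX1 (-0.24), which belong to the same response, were not called. The list's median was -0.25. Of the 6 genes, 5 stayed called in each fit without 1 clone array. Complement was called in 2 of 20 members (10%), both lower, C1S, the protease of the classical pathway (-1.07 ± 0.10), and C3 (-0.63 ± 0.09, not among the 396).

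Enzymes against oxidants and carbonyls, many of them targets of NRF2, were called in 7 of 27 members, all 7 lower in clone 8 (25.9%), and 14 members were lower and 0 higher by the adjusted p alone. AKR1C3, an aldo-keto reductase that acts on steroids and prostaglandins, read 9.12 and 8.91 in clone 7, 7.18 and 7.40 in clone 8 and 8.26 to 8.32 in mock (-1.73 ± 0.10, adjusted p = 1.24e-06). AKR1C1 (-1.70 ± 0.14) and AKR1C2 (-1.28 ± 0.13) have near-identical sequences and may share probes with AKR1C3, so that the 3 values are uncertain as separate genes. With all probe sets of a gene averaged, AKR1C1 differed by -0.90 (limma adjusted p = 0.000594). NQO1, the quinone reductase, read 12.72 and 12.62 in clone 7 and 11.52 and 11.63 in clone 8 (-1.10 ± 0.07, adjusted p = 2.24e-06). HMOX1, or heme oxygenase 1, read 10.65 and 10.64 against 9.69 and 9.71, and SLC7A11, the cystine transporter, 11.33 and 11.19 against 10.41 and 10.61. Of the 7 called genes, 6 stayed called in each fit without 1 clone array. MGST1 and SELENOP were outside this list. MGST1, a membrane-bound glutathione transferase, read 10.87 and 10.79 against 7.69 and 8.27 (-2.85 ± 0.14). SELENOP, the plasma carrier of selenium, read 11.78 and 11.89 against 8.04 and 9.26, with the clone 8 cultures far apart (-3.18 ± 0.27).

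Axon guidance genes were called in 9 of 53 members (17%), 3 higher and 6 lower. UNC5C, a netrin receptor that mediates repulsion, read 8.91 and 9.12 in clone 7 and 11.11 and 11.36 in clone 8, and mock (11.05 to 11.14) and wild-type (11.41 to 11.45) were like clone 8 (2.22 ± 0.09, adjusted p = 6.86e-08). SEMA6A, a membrane semaphorin, was higher by 0.89 ± 0.11 and ROBO1, the slit receptor, by 0.60 ± 0.09 (not among the 396). SEMA5A, a semaphorin of the membrane, read 12.03 and 12.11 against 10.57 and 10.70 (-1.44 ± 0.08). Both neuropilins, the coreceptors of semaphorins and VEGF, were lower, NRP2 at 9.41 and 9.49 against 8.16 and 8.42 (-1.16 ± 0.09) and NRP1 at 11.81 and 11.85 against 10.76 and 10.87 (-1.01 ± 0.07). SLIT2, a ligand of ROBO1, differed by -0.69 ± 0.07, opposite to its receptor. NELL2, a secreted ligand of a related ROBO receptor, was outside this list. It read 6.25 and 6.24 in clone 7, 6.42 to 6.45 in mock and 8.48 and 8.68 in clone 8 (2.34 ± 0.12). The levels outside clone 8 were below the lowest lower quartile.

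Neuronal adhesion and growth cone genes were called in 9 of 35 members (25.7%), 3 higher and 6 lower. NLGN4X, a neuroligin of postsynaptic membranes, read 10.81 and 10.89 in clone 7 and 7.95 and 7.61 in clone 8, with mock between at 8.77 to 8.90 (-3.07 ± 0.11, adjusted p = 2.57e-08). GPM6A, a neuronal membrane glycoprotein, read 7.50 and 7.29 in clone 7, 9.94 and 10.02 in clone 8, 10.38 to 10.45 in mock and 12.09 to 12.21 in wild-type (2.59 ± 0.08, adjusted p = 7.16e-09). FLRT3, an adhesion protein that binds UNC5 receptors, read 10.85 and 10.92 against 8.98 and 9.34 (-1.72 ± 0.11), opposite in sign to UNC5C. LRRN1 differed by -1.27 ± 0.14 and CNTN1, or contactin 1, by 0.95 ± 0.11, with a clone 7 level below 7.00. MAP2, the dendritic microtubule protein, was the 1 called member of 7 neuronal markers, at 9.48 and 9.52 against 7.12 and 7.22 (-2.33 ± 0.08). The marker SNAP25 differed by 0.07, and NEFL, the light neurofilament chain, read 12.79 and 12.74 in clone 7 and 11.11 and 11.29 in clone 8 (-1.56 ± 0.08).

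Growth factors and their binding proteins differed in both directions. IGFBP5 read 11.65 and 11.69 in clone 7 and 8.82 and 8.88 in clone 8 (-2.82 ± 0.08, adjusted p = 3.14e-09), IGFBP3 differed by -0.91 ± 0.07, and IGFBP4 read 11.08 and 11.19 in clone 7 and 12.69 and 12.63 in clone 8 (1.53 ± 0.07). These proteins bind insulin-like growth factors in the medium, and 4 of 16 members of their list were called (25%). The other called member, STC1, is not one of these binding proteins. It was lower in clone 8 and was not among the 396. Receptor tyrosine kinases and their ligands were called in 7 of 49 members (14.3%), 3 higher and 4 lower. Of the platelet-derived growth factors, PDGFD was lower (10.58 and 10.59 against 9.40 and 9.76, -1.01 ± 0.10) and PDGFC higher (9.77 and 9.77 against 10.52 and 10.71, 0.84 ± 0.08). FGF5 was higher by 0.85 ± 0.09, and NRG1, a ligand of ERBB receptors, differed by -0.79 ± 0.09.

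Immediate-early genes and feedback genes of the ERK pathway were called in 3 of 31 members (9.68%). FOS read 11.25 and 11.39 in clone 7, 10.00 and 10.04 in clone 8 and 10.27 to 10.45 in mock (-1.30 ± 0.12, adjusted p = 3.11e-05). ETV4 and ETV5, transcription factors induced downstream of ERK, were higher in clone 8, ETV4 at 9.04 and 9.03 against 9.73 and 9.96 (0.81 ± 0.09) and ETV5 by 0.70 ± 0.09. In both of them clone 8 was near mock. DUSP6, a phosphatase of ERK, differed by 0.42 ± 0.11 (adjusted p = 0.0188), under the fold limit. RASGRP3 (1.66 ± 0.11) and RASGRP1 (1.58 ± 0.14), which load RAS with GTP, were outside this list. Both stood among the genes that were highest in clone 8 relative to clone 7. RASGRP1 read 7.85 and 7.80 in clone 7 and 9.13 and 9.69 in clone 8.

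In breakdown of butanoate and branched-chain amino acids 6 of 36 members were called (16.7%), 5 lower and 1 higher, and 16 were lower against 2 higher by the adjusted p alone, with a list median of -0.248. ALDH6A1, of valine breakdown, read 9.59 and 9.50 in clone 7 and 8.46 and 8.74 in clone 8 (-0.94 ± 0.09). BCAT1, the cytosolic branched-chain aminotransferase, differed by -0.84 ± 0.08 and BCAT2, its mitochondrial relative, by -0.67 ± 0.09. AADAC, an esterase, was higher (9.06 and 9.22 against 9.70 and 9.99, 0.70 ± 0.18), was not among the 396, and lay above its mock level of 7.70 to 7.82 in both clones. FABP3, a fatty acid carrier, and TDO2, the tryptophan dioxygenase, were outside this list. FABP3 read 10.34 and 10.34 against 8.71 and 8.87 (-1.55 ± 0.09). TDO2 read 12.23 and 11.91 in clone 7, 8.71 and 9.30 in clone 8 and 8.60 to 8.91 in mock (-3.06 ± 0.17, limma adjusted p = 5.47e-07).

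In mitosis and spindle 0 of 31 members were called (0%), with 7 higher and 0 lower by the adjusted p alone and a median of 0.12, and NUF2, of the outer kinetochore, differed by 0.56. In DNA replication 1 of 30 members was called (3.33%), POLE2 (-0.66 ± 0.17, not among the 396, and -0.33 without clone 8 replicate 1), and in G1 checkpoint 1 of 19 (5.26%), CCND1, or cyclin D1, which read 12.54 and 12.41 in clone 7 and 13.10 and 13.09 in clone 8 (0.62 ± 0.07, not among the 396). Of the 10 measured members of the EMC, EMC10 included, none was called, and EMC6 (-0.45 ± 0.08, adjusted p = 0.0027) passed the adjusted p but not the fold limit. No member was called among 24 genes of endoplasmic reticulum stress, 27 of oxidative phosphorylation and 32 of glycolysis and hypoxia. The same held for 11 metallothioneins, 21 keratins and 12 genes of antigen presentation. By the adjusted p alone, 4, 2 and 6 members of the first 3 lists were lower, and 3 of antigen presentation. In glycolysis and hypoxia 1 was higher. DDIT3 (-0.57 ± 0.12) and SEL1L (-0.47 ± 0.10) of the stress list, and PSMB9 (-0.54 ± 0.06) and B2M (-0.53 ± 0.08) of antigen presentation, were under the fold limit.

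**Figure D4:**
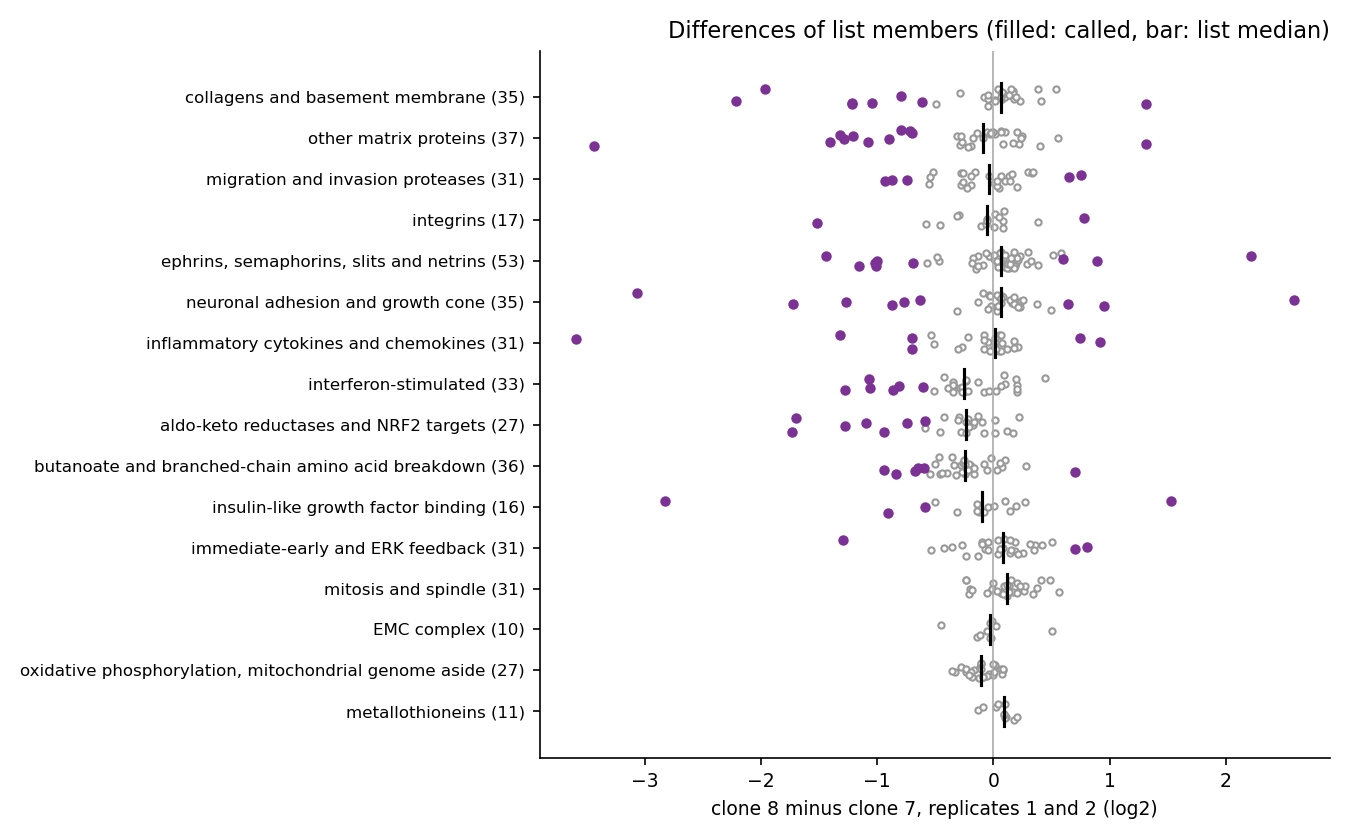
Difference between clone 8 and clone 7 in replicates 1 and 2 (horizontal axis, log2) of the members of 16 gene lists, with the number of measured members in brackets. Filled points are called genes, open points are not called, and black bars are list medians; points are spread vertically only to show them apart. The 7 called members of the aldo-keto reductase and NRF2 list and the 6 of the interferon list all lie below 0, whereas 0 of 31 mitosis genes were called.

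Wnt was called in 2 of 46 members (4.35%), near the share of all genes. These were the receptor LGR5 (0.92 ± 0.17, and 0.61 without clone 8 replicate 2) and the ligand WNT7B (0.63 ± 0.08), both higher in clone 8. In LGR5 both clones lay above the mock range of 6.81 to 7.00, with 7.77 and 7.67 in clone 7 and 8.33 and 8.95 in clone 8. HOXB5 (0.92 ± 0.08) and HOXB9 (0.62 ± 0.08, not among the 396) were the called genes of 27 HOX genes (7.41%). Cadherins and protocadherins held 3 higher and 1 lower of 23 (17.4%), with PCDH18 lower (-0.99 ± 0.08) and CDH18 higher (0.80 ± 0.06). CLDN4, a tight junction claudin, was the 1 called gene of 17 in its list (5.88%), higher by 0.83 ± 0.08. Of 19 calcium-binding proteins (10.5%), CALB1, or calbindin, was higher (6.23 and 6.21 against 7.36 and 7.56, 1.24 ± 0.08) and CALB2, or calretinin, lower (9.22 and 9.33 against 8.44 and 8.43, -0.84 ± 0.07). The clone 7 level of CALB1 was below 7.00, so that it was not shown to be above background. The contractile list had 3 lower of 24 members (12.5%), DES, or desmin (-1.12 ± 0.08), and CALD1 (-0.60 ± 0.07) and TAGLN (-0.60 ± 0.08), neither of which was among the 396. ACTA2 (0.51, limma adjusted p = 0.0013) and CNN1 (0.46, adjusted p = 0.000663) of the same list were higher in clone 8, under the fold limit.

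MAGEB2, a cancer-testis antigen of the X chromosome, was among the named genes with a large difference toward clone 8. It read 6.03 and 5.96 in clone 7, 6.08 to 6.28 in mock, 5.70 to 6.09 in wild-type and 8.49 and 9.13 in clone 8 (2.82 ± 0.18, adjusted p = 1.77e-06). On replicate 3 it read 8.95 on the array labelled clone 7 and 6.19 on the array labelled clone 8. SPANXB1, another such antigen, differed by 0.98 ± 0.11, and the other 25 measured members of the list were not called (7.41% called). Levels of both antigens in clone 7 lay below 7.00 and were not shown to be above background, so that the size of these differences is uncertain. MAGEB2 and SPANXB1 belong to families of close copies, so that their probes may read relatives. COLEC10, a collectin that binds sugars, read 7.65 and 7.84 in clone 7 and 10.02 and 10.20 in clone 8 (2.37 ± 0.11).

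Families of repeated genes were looked at as well. All 7 measured pregnancy-specific glycoproteins, which lie together on chromosome 19 and are secreted by the placenta, were lower in clone 8, by -0.648 to -1.236, with 6 of them among the 396, and since they are near-identical they are not separate observations. PSG4 read 13.64 and 13.56 in clone 7 and 12.71 and 12.80 in clone 8. Of the 20 measured C/D box small RNAs of the SNORD116 cluster on chromosome 15, which is expressed from the paternal copy, 13 were lower and 0 higher (65%), with a median difference of -0.705, and 7 of the 13 were among the 396. As repeated members of 1 cluster they are not separate observations either. Of all 115 C/D box small RNAs, this cluster included, 12 were higher and 13 lower (21.7%). The 13 lower ones were all of this cluster, and the 12 higher ones all lay outside it. SNORD116-1 read 8.79 and 9.18 in clone 7, 7.30 and 8.06 in clone 8 and 7.76 to 7.92 in mock. Of 494 genes with ZNF symbols, 16 were lower and 4 higher (4.05%), near the share of all genes, with a median of 0.003. The largest differences among them were those of ZNF730 (-2.97 ± 0.11) and ZNF100 (-2.23 ± 0.15) of chromosome 19, whose close relatives make both values uncertain. Both read below 7.00 in clone 8. These families were singled out after their values were seen.

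Each clone was also set beside mock without replicate 3. Against mock, 399 genes (2.17%) were called in clone 7, 263 higher (1.43%) and 136 lower (0.738%), and 379 (2.06%) in clone 8, 144 higher (0.782%) and 235 lower (1.28%). The comparisons share the mock arrays. Of the 444 genes lower in clone 8 than in clone 7, mock lay between the clones and nearer to clone 7 in 175 and nearer to clone 8 in 182, above both in 46 and below both in 41. Of the 173 higher genes, mock lay nearer to clone 7 in 71, nearer to clone 8 in 55, below both in 33 and above both in 14. CCL2 and PCOLCE, an enhancer of procollagen processing, did not pass the test against mock in clone 7 and were below mock in clone 8, with -3.38 for CCL2 and -2.06 for PCOLCE. TDO2, SULF1, MXRA5, a matrix remodelling protein (1.72 against mock) and PADI3 (1.49 against mock) were high in clone 7. UNC5C, GPM6A and HOXB5 were low in clone 7, at -2.08, -3.03 and -0.82 against mock.

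Of the genes that the study listed for A172, 35 of those it gave as raised and 44 of those it gave as lowered were measured, and they were chosen by the study on these samples. Between the clones, 3 of the 35 were called (8.57%), AADAC higher and NAP1L3 (-0.80 ± 0.06) and AMTN (-0.80 ± 0.13, not among the 396) lower in clone 8. Of the 44, TEK, the angiopoietin receptor (-0.65 ± 0.08), and B3GALT1, a galactosyltransferase (-0.69 ± 0.14), were lower in clone 8 (4.55%), and neither was among the 396. In both of these, each clone lay below mock, B3GALT1 at 8.70 and 8.85 in clone 7, 7.87 and 8.31 in clone 8 and 9.61 to 9.77 in mock.

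The called genes were spread over the chromosomes unevenly. Chromosome 14 had 37 called genes of 587 tested (6.3%), 2 higher and 35 lower, with a median difference of -0.115 over all its genes. Chromosome 4 had 22 higher and 23 lower of 710 (6.34%, median 0.084), and chromosome 2 had 7 higher and 50 lower of 1155 (4.94%, median -0.009). The shares of chromosomes 15 (5.56%, 10 higher and 22 lower) and 5 (5.36%, 14 higher and 28 lower) were larger than that of chromosome 2. Running medians over 25 neighbouring genes were taken in gene order, and neighbouring genes are not independent of each other. Long stretches stood off in 1 direction by more than 0.2 for at least 20 windows, and they were picked after the values were seen.

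On chromosome 14 the 6 such stretches all lay below 0. From LRFN5 to WDR89, over 108 windows, the median gene differed by -0.302 between the clones, by 0.233 between clone 7 and mock and by -0.064 between clone 8 and mock, and 15 genes were called lower and 0 higher. From ACOT1 to SNW1, over 64 windows, the values were -0.368, 0.314 and -0.027, and in replicate 3 the median gene differed by 0.24, the opposite sign. DIO2, a deiodinase that activates thyroid hormone, DAAM1, a formin of planar polarity, and FOS lie on this chromosome. DIO2 read 10.12 and 10.26 in clone 7 and 8.39 and 8.85 in clone 8 (-1.57 ± 0.12).

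On chromosome 2, from PRKRA to CARF, the median gene over 94 windows differed by -0.272, with 0.01 in clone 7 against mock and -0.24 in clone 8 against mock. On chromosome 10, from OPTN to TMEM236, these values were -0.312, 0.047 and -0.327 over 30 windows, and on chromosome 9, from ZNF510 to TEX10, they were -0.248, 0.016 and -0.26 over 28 windows. In these 3 stretches clone 8 stood off from mock and clone 7 did not. On chromosome 4, from USP38 to FBXW7, the median gene was 0.26 higher in clone 8 over 29 windows, with -0.344 in clone 7 against mock and -0.036 in clone 8. The median gene of replicate 3 had the opposite sign in all 12 stretches, but not the same size. In each stretch below 0 it was smaller in size than in replicates 1 and 2. It was 0.134 from LRFN5 to WDR89, 0.121 from PRKRA to CARF and 0.147 from OPTN to TMEM236. From USP38 to FBXW7 it was larger in size, at -0.395. The number of copies of each chromosome was not measured.

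**Figure D5:**
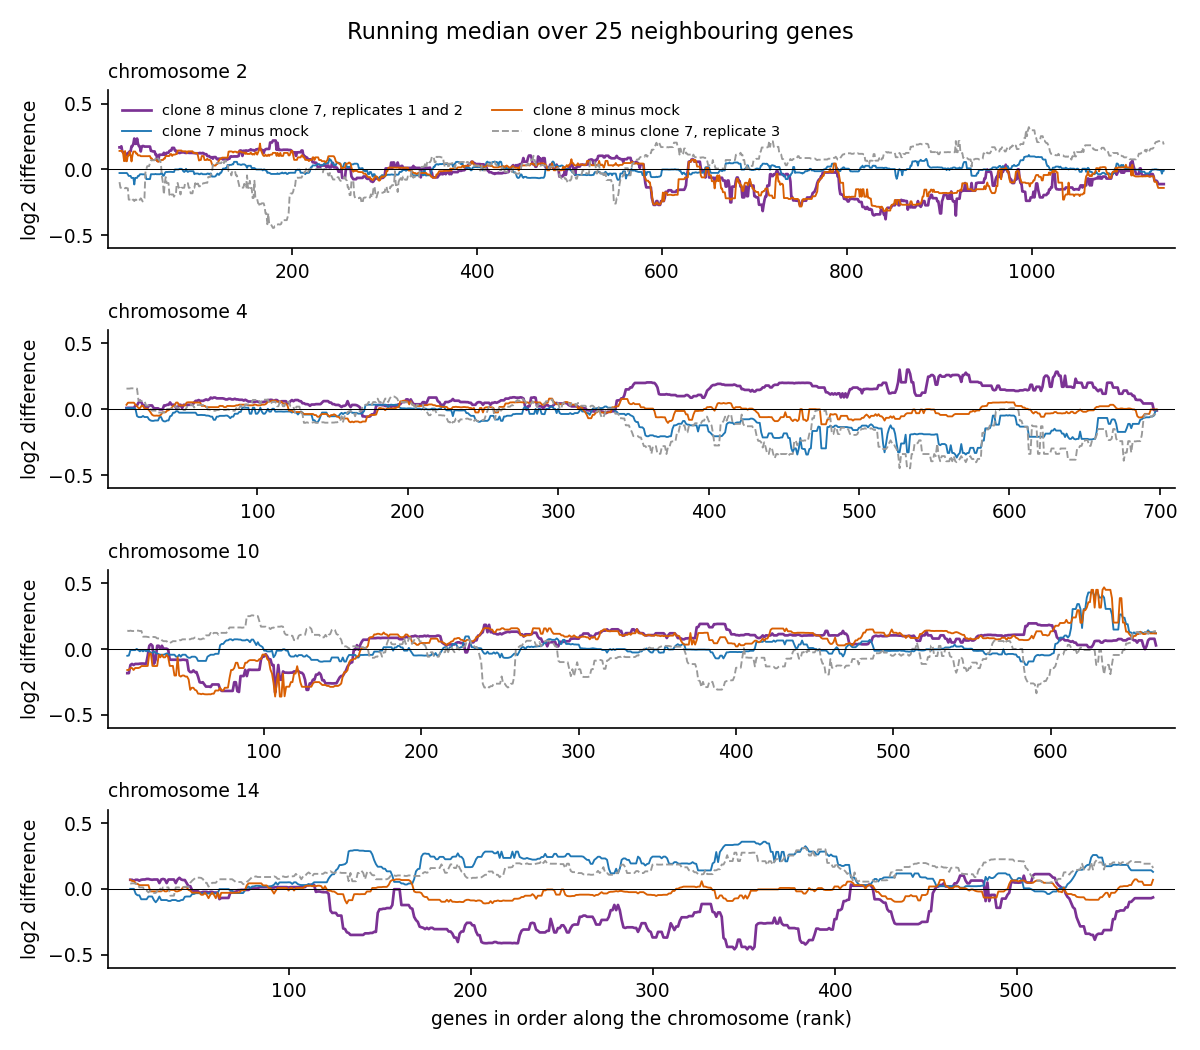
Running median over 25 neighbouring genes of the log2 difference (vertical axis) along chromosomes 2, 4, 10 and 14, against the rank of genes in order (horizontal axis). Purple is clone 8 minus clone 7 in replicates 1 and 2, blue clone 7 minus mock, orange clone 8 minus mock (without replicate 3), and dashed grey clone 8 minus clone 7 in replicate 3. Over much of chromosome 14 purple lies below 0 and blue above it, whereas in the second part of chromosome 2 purple lies below 0 together with orange.

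Markers of other cell types were checked beside these genes. Of leukocyte markers 1 of 5 was called (20%), CD68 (-1.28 ± 0.07), a lysosomal protein of macrophages that many cells make, while PTPRC, CD3E, CD14 and ITGAM differed by -0.09 to 0.43. Of 7 fibroblast and pericyte markers COL1A2 and COL3A1 were lower and LUM was higher, and DCN was dim at 6.0 in clone 7 replicate 1 and 5.8 in clone 8 replicate 1. Epithelial (6), endothelial (6) and oligodendroglial (5) markers had 0 called. Of the 617 genes, 44 were below the lowest lower quartile in clone 7, 60 in clone 8 and 26 in both, and no detection calls came with the values.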

How the data were processed

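RNA of 12 cultures was hybridised to GeneChip Human Gene 1.0 ST arrays. The log2 values were used as deposited by the authors, 1 per probe set and array. Partek is named in the submitters' processing notes, and the summarization and normalization are not given in the sources used here. Of the probe sets, 19460 had a single platform symbol, 1754 several and 12083 none. Where a gene had several, the one highest on average across the arrays was kept, leaving 18417 genes. Chromosomes came from the RefSeq gene table (GRCh38.p14) by Entrez ID.

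Groups came from the array titles. limma 3.58.1 in R 4.3.3 fitted 4 groups, over 12 arrays and over 10 without replicate 3 of both clones, with Benjamini-Hochberg adjustment over all genes. A call needed an adjusted p under 0.05 and 1.5-fold, the limits of the study. The script was tested on simulated data. Named were EMC10 and the 15 genes largest in each direction, with olfactory receptor, LOC, SNORD and open reading frame symbols passed over. Among those passed over was OR2M3, higher in clone 8 by 2.44. Up to 4 called members of each list and genes the study lists were named too, and further genes after their values were seen. The members and lists were chosen with earlier results of these data known. Alternatives were the samples fitted, a replicate block, normalization, a low-value filter, probe averaging, moderation, array weights and the fold limit.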

Additional observations from a re-analysis of the deposited data

Results flagged for a closer look

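In 23 named genes the clones lay on opposite sides of mock, with both differences from mock called without replicate 3. Both share the mock arrays, and the difference between the clones was itself called in each of them. POSTN was 1.26 above mock in clone 7 and -2.18 from it in clone 8 (clone 8 minus clone 7, -3.44). NLGN4X gave 2.00 and -1.07 (between the clones, -3.07), and LAMA2 gave 1.49 and -0.72 (-2.21). TNFSF4 gave -0.94 and 0.90 (1.84), and COLEC10 gave -1.76 and 0.61 (2.37), so that these were the 2 that were higher in clone 8.

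For the others only the difference between the clones is given. Of metabolic enzymes, AKR1C2 differed by -1.28, AKR1C3 by -1.73 and MGST1, a glutathione transferase, by -2.85. Of secreted and membrane proteins, IGFBP5 differed by -2.82, OLFML1 by -2.75, FAP by -2.23, F2RL2, a thrombin receptor family member, by -2.16, GPNMB by -1.85, FLRT3 by -1.72, ANGPTL7 by -1.57 and CD68 by -1.28. EVI2A differed by -2.23 and EVI2B by -1.61, a pair of genes within an intron of NF1. MAP2 differed by -2.33, NEFL by -1.56 and TPD52L1 by -1.54. The zinc finger genes ZNF730 and ZNF486 differed by -2.97 and -1.78.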

How the results depend on the processing

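As labelled, 0 genes were called under every alternative run, and leaving out replicate 3 of both clones gave 617. From there, 3166 genes were called with no fold limit, 1636 at 1.3-fold and 152 at 2-fold. Leaving out 1 clone array gave 585 (without clone 7 replicate 2) to 955 (without clone 8 replicate 2), and leaving out 1 control array 611 to 615. The clone arrays alone gave 514, quantile normalization 641, a filter at the lower quartile 570, averaged probe sets 612, array weights 591 and trended robust moderation 619. With the replicate number as a block 619 genes were called without replicate 3 and 0 as labelled. Deviations of same-numbered wild-type and mock arrays correlated at -0.262, -0.067 and -0.152, so that the numbers were not taken to pair the samples. For wild-type and clone 8 the values were 0.446, 0.229 and -0.108, and deviations of clone arrays carry the place of replicate 3 in their group means. The EMC10 difference as labelled ranged from 0.0036 to 0.3687 with 1 array left out.

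Of the named genes, MT3 ranged from -0.083 (without clone 8 replicate 1) to 0.4464 (without clone 8 replicate 2), and PECAM1 from -3e-04 to 0.3293 likewise. As labelled, 164 of 199 named genes were no longer past the threshold. The other 35 had not been past it without replicate 3 either. Without clone 8 replicate 1, 11 no longer passed and 5 newly did. The cause was not tested. No depth or detection call came with these arrays.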
